A study of Mus musculus with 15 samples.

Results

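This section describes 7 RNA-seq libraries of sorted mouse islet cells with high aldehyde dehydrogenase activity (ALDH+ cells). Of these, 5 came from triple Foxo knockout mice and 2 from triple heterozygous controls, out of 15 libraries in the series. They were chosen by their labels alone, as every library sorted ALDH+. The other 8 libraries (3 control, 5 knockout) were the ALDH- cells sorted from the same genotypes. Every mouse carried mutant alleles of Foxo1, Foxo3 and Foxo4, all labelled Het in controls and KO in knockouts, on a mixed 129J and C57BL/6 background. The cre transgene was RIP-Cre, driven by the rat insulin promoter, in 1 control and 3 knockouts (replicates 1 to 3), and Pdx-Cre, driven by the promoter of the pancreatic transcription factor Pdx1, in 1 control and 2 knockouts (replicates 4 and 5). RIP-Cre acts in insulin-expressing cells and Pdx-Cre acts in the pancreatic progenitor field, so the cell in which recombination occurred differs between the drivers. The labels give no age. The study's methods describe sorting from mice of 6 months, with islets from 10 to 20 mice per genotype, for RIP-Cre mice, and do not say how many mice went into each library. In that sort, beta cells were recognised by a red fluorescent protein switched on by cre and were divided by the fluorescent ALDH substrate aldefluor. A red cell therefore marks past as well as present cre activity. With Pdx-Cre, which acts in progenitors, a red cell need not be a beta cell. With only 1 control library per driver, the spread among controls of a driver could not be measured. By their labels the controls are heterozygous for each Foxo gene, whereas the study's text calls its control ALDH+ cells wild type. The labels were followed here.

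FoxO proteins are forkhead transcription factors that enter the nucleus when insulin signalling is low or when cells are under oxidative or nutrient stress, where they bind a short DNA element and act on genes of metabolism, stress defence and cell fate. In beta cells they preserve the differentiated state, and their loss has been linked to dedifferentiation, in which a cell stops acting as an insulin-producing cell. ALDH1A3, an enzyme that makes retinoic acid, marks beta cells that are failing. The comparison asks how ALDH+ cells of Foxo knockouts differ from ALDH+ cells of controls. Foxo was deleted before the sort, and the study found a larger share of red ALDH+ cells in RIP-Cre knockouts than in controls. The part of that larger share in the differences was not tested. Because each driver has its own control, the values below are given for each driver separately, and genes are described first by whether all 5 knockouts lay on the same side of the control with the same driver.

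The tables gave FPKM (fragments per kilobase of transcript corrected for depth, a scale that can be compared between genes) for 23699 lines. The fragments behind them, inferred from the error limits in the tables, came to 8200298 to 9730667 per ALDH+ library. Correlations of log2(FPKM + 1) between pairs of the 7 libraries ran from 0.914 to 0.968. Insulin-cell RNA dominated all of them, with Iapp, the islet amyloid hormone of beta cells, at 33196 to 97371 FPKM. Markers of other cells were not uniform. The Pdx-Cre control held 1684 summed FPKM of 19 acinar markers and knockout 5 held 809, against 24.5 to 32.8 in the other 5 libraries, and Ctrb1, a digestive zymogen, stood at 1223 and 601 FPKM in these 2 libraries and at no more than 1.58 elsewhere. The Pdx-Cre control also held the most RNA of other endocrine cells, with Gcg, the glucagon gene of alpha cells, at 5822 FPKM against 154 to 1016 in the other 6 libraries, and 6 delta and PP cell markers summing to 7531 against 891 to 1708. Summed stellate and fibroblast, erythroid, Schwann and endothelial markers reached at most 1.93, 1.27, 3.501 and 5.34 FPKM, the Schwann sum being 0.580 and 1.24 in controls and 1.29 to 3.501 in knockouts. Ptprc, which marks leukocytes, was at 0 in 6 libraries and at 0.0193 in knockout 1. Other immune markers were not near 0 throughout, with Cd68 at 18.99 to 70.8 FPKM and Cd74 at 0.416 to 10.8 in the 7 libraries. Cd68 was highest in the Pdx-Cre control. In ALDH- cells Gcg was at 35838 FPKM in the Pdx-Cre control and 17334 and 9533 in its knockouts, against 667 to 888 with RIP-Cre. Sst, the somatostatin gene, was at 13631, 9792 and 8245 in the same libraries, against 412 to 1036 with RIP-Cre. The ALDH- differences below include these mixed libraries. The part of the acinar, alpha, delta and PP RNA of Pdx-Cre libraries in the Pdx-Cre and ALDH- differences was not tested.

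Across the 11345 genes tested with limma (cre driver as a covariate), 0 passed an adjusted p of 0.05 (percent called 0), and the smallest adjusted p was 0.461. Without adjustment, 746 genes (6.58%) were under 0.05, 439 of them higher in knockouts (3.87%) and 307 lower (2.71%). The sign rule, under which all 5 knockouts lie on the same side of their own driver's control, was met by 1185 genes on the higher side (10.4%) and by 1016 on the lower side (8.96%). For comparison, 1748 genes (15.4%) had every RIP-Cre knockout on one side and every Pdx-Cre knockout on the other. A stricter rule, at least 2-fold (1 on the log2 scale) beyond the control in all 5 knockouts, left 25 genes (0.220%), 5 higher (0.0441%) and 20 lower (0.176%). In all 25 the knockout and control ranges did not overlap, which their choice by the 2-fold rule favours. No overlap was the case for 935 of the genes tested (8.24%), 474 higher (4.18%) and 461 lower (4.06%). None of the 25 passed the adjusted test.

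**Figure D1:**
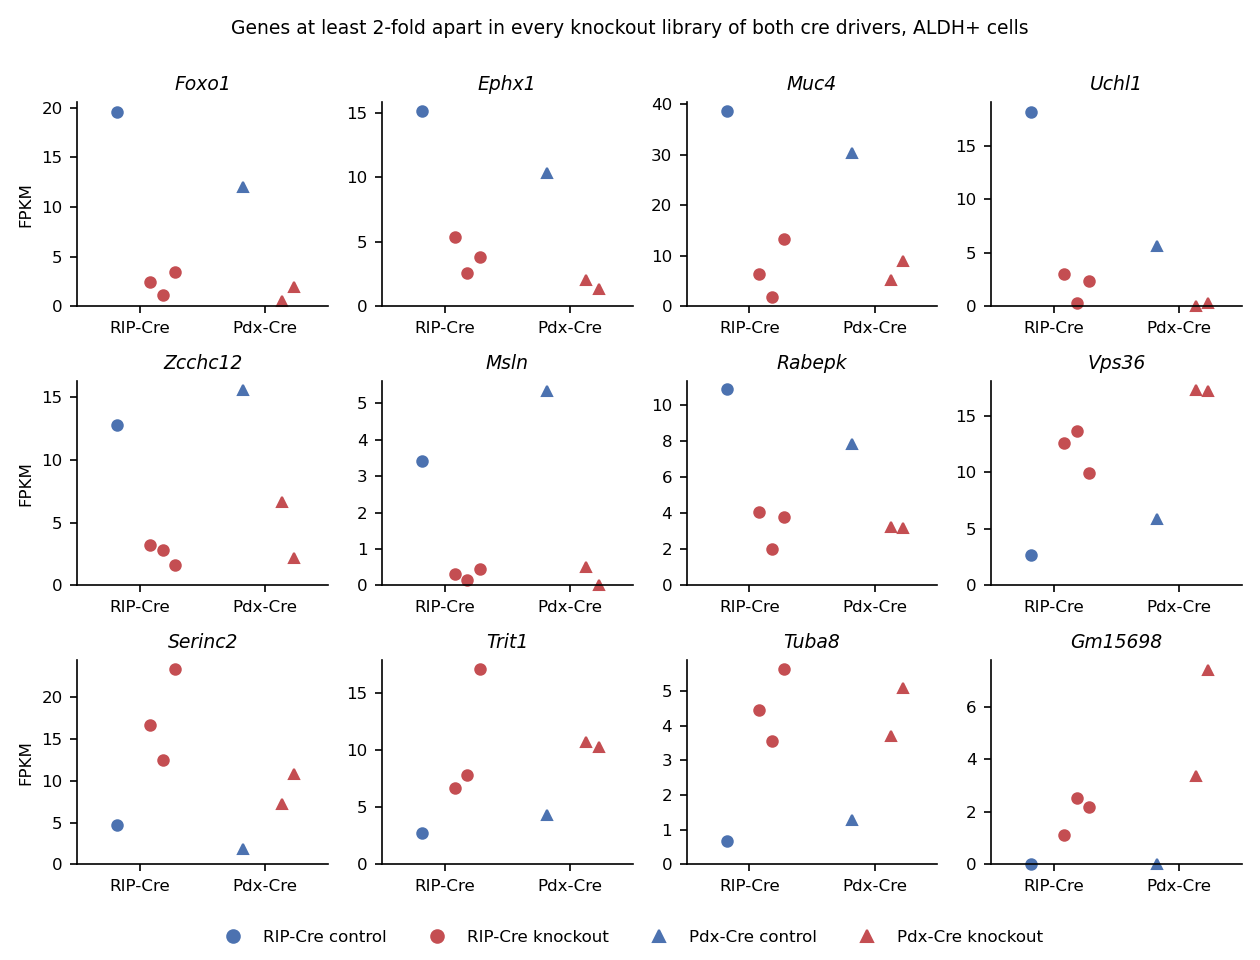
FPKM (vertical, linear axes that differ between panels) of genes at least 2-fold apart in every knockout of both cre drivers, in RIP-Cre libraries (circles) and Pdx-Cre libraries (triangles), with controls in blue and knockouts in red. Each point is a library and no error is drawn, since each driver has 1 control. Foxo1 stands at 19.6 and 12.04 in the controls and at 0.523 to 3.44 in the knockouts.

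The targeted genes come first, since they check the labels. Foxo1 (chr3:52072259-52154031, mm9), the main FoxO factor of beta cells, was at 19.6 FPKM in the RIP-Cre control and at 2.47, 1.15 and 3.44 in RIP-Cre knockouts 1, 2 and 3. It was at 12.04 FPKM in the Pdx-Cre control and at 0.523 and 1.98 in knockouts 4 and 5. All knockouts were below both controls, and the difference was nearly the same in the RIP-Cre (-2.63, log2) and Pdx-Cre (-2.61) libraries. In the joint fit it was -2.62 ± 0.41 (log2, SE), with an adjusted p of 0.461 (limma). The ALDH- cells gave -2.54, from 16.2 to 20.1 FPKM in 3 controls to 0.0925 to 4.24 in 5 knockouts.

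Foxo3 (chr10:41905592-41996548) did not separate the groups, with 14.7 FPKM in the RIP-Cre control, 17.1, 12.3 and 22.3 in its knockouts, 19.3 in the Pdx-Cre control and 11.1 and 30.6 in its knockouts (0.10 ± 0.38, adjusted p = 0.980). Foxo4 was scarcely measured, at 0.428 FPKM in the RIP-Cre control, 0.0329 in knockout 1 and 0 in the other 5 libraries, and was too low to be tested. A value for the whole gene does not resolve deleted exons, so the Foxo3 and Foxo4 values do not check the deletion. Foxo6, which was not targeted, was at 7.26 and 1.03 FPKM in the RIP-Cre and Pdx-Cre controls and at 4.79 to 8.13 and 1.22 to 2.37 in their knockouts. Its levels were higher in all RIP-Cre than in all Pdx-Cre libraries and did not separate the genotypes (0.18 ± 0.35, adjusted p = 0.958).

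The sort read aldehyde dehydrogenase activity and not the product of a single gene. Aldh1a3 was at 28.2 FPKM in the RIP-Cre control and 22.1, 35.2 and 50.7 in its knockouts. With Pdx-Cre it was at 24.9 in the control and 33.4 and 76.9 in the knockouts. The groups overlapped (0.65 ± 0.39, adjusted p = 0.811). In ALDH- cells it ranged from 0.490 to 4.09 FPKM, below every ALDH+ library.

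Among the 20 genes lower in every knockout were genes for an epoxide-metabolising enzyme, a mucin and mesothelin. Ephx1 (chr1:182919687-182947626), the microsomal epoxide hydrolase that detoxifies reactive epoxides, was at 15.1 FPKM in the RIP-Cre control and 5.34, 2.56 and 3.83 in its knockouts. In the Pdx-Cre libraries it was at 10.3 in the control and 2.05 and 1.30 in the knockouts. The knockouts lay below both controls (-1.89 ± 0.33, limma adjusted p = 0.536). The ALDH- cells gave -1.65 (8.02 to 17.9 FPKM in controls, 1.29 to 8.09 in knockouts), and the contrasts of the 2 populations differed by less than their error (-0.20 ± 0.60).

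Muc4 (chr16:32735972-32782476), a large membrane mucin of epithelia, was at 38.5 FPKM in the RIP-Cre control against 6.35, 1.90 and 13.3 in knockouts. The Pdx-Cre control had 30.2 against 5.28 and 8.96. The joint difference was -2.25 ± 0.54 (adjusted p = 0.650), and ALDH- cells gave -2.16, with 10.3 to 12.8 FPKM in controls and 0.620 to 3.86 in knockouts. Msln (chr17:25885558-25891272), mesothelin, a surface protein reported to bind mucins, was at 3.42 FPKM against 0.306, 0.140 and 0.459 in RIP-Cre libraries and at 5.34 against 0.505 and 0 in Pdx-Cre libraries (-2.03 ± 0.42). In ALDH- cells it was at 1.13 to 5.15 FPKM in controls and 0 to 0.457 in knockouts (-1.39). In ALDH- cells, too, every knockout of Foxo1, Muc4 and Msln was below its own driver's controls, while Ephx1 was at 8.09 FPKM in Pdx-Cre knockout 4 against 8.02 in the Pdx-Cre control. The ALDH- libraries are other cells of the same genotypes and may come from the same mice, which the labels do not say.

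Uchl1, Zcchc12, Pygo1 and Npff were at least 2-fold lower in every ALDH+ knockout. Uchl1 (chr5:67067360-67078473), a neuronal ubiquitin hydrolase also found in islets, was at 18.2 FPKM against 3.01, 0.284 and 2.33 in RIP-Cre libraries and at 5.65 against 0 and 0.302 in Pdx-Cre libraries (-2.70 ± 0.49, adjusted p = 0.536). In ALDH- cells its groups overlapped, with 7.91 to 16.8 FPKM in controls and 2.46 to 17.5 in knockouts, and the ALDH+ difference exceeded the ALDH- difference by -1.88 ± 0.86 (limma adjusted p = 0.999). Zcchc12 (chrX:33735899-33739153), a transcriptional coactivator of the brain, was at 12.8 FPKM against 3.19, 2.83 and 1.66, and at 15.6 against 6.67 and 2.15 (-1.85 ± 0.39). Pygo1 (chr9:72773457-72793822), a coactivator of Wnt signalling, was at 7.198 FPKM against 0.190, 0.347 and 0, and at 2.23 against 0 and 0.308 (-2.17 ± 0.46). Both had their knockouts below both controls, and in ALDH- cells they gave -0.64 and -0.47. Npff, which encodes a neuropeptide that acts on opioid pathways, was at 5.84 FPKM against 0.491, 0.377 and 0, and at 1.75 against 0 and 0, on no more than 11.4 inferred fragments in any ALDH+ library, and it gave -0.33 in ALDH- cells.

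The size of the next lines cannot be read from so few fragments. Mir686 and Snora30 are a microRNA and a small nucleolar RNA, and in these polyadenylated libraries their values of 540 and 322 FPKM (Mir686) and 152 and 450 FPKM (Snora30) in the RIP-Cre and Pdx-Cre controls stand for at most 3 inferred fragments. Knockout 5 had 88.2 and 136 FPKM and the other 4 knockouts had 0. Mir686 (chr14:55235514-55235622) lies within the coordinates of Psmb5, a proteasome subunit gene, whose own difference was 0.03. For 2310069G16Rik, a transcript of unknown role at 4.90 and 2.41 FPKM in the controls, all 5 knockouts were listed at 0, so the fitted difference depends on the added constant.

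The remaining 9 genes at least 2-fold lower fall outside the naming rule and were chosen after their values were seen, to account for all 20. Rabepk (chr2:34634186-34655432), a Rab9 effector of transport from endosomes to the trans-Golgi network, was at 10.9 FPKM against 4.07, 1.99 and 3.78, and at 7.81 against 3.21 and 3.15 (-1.27 ± 0.33). In ALDH- cells it was at 3.27 to 4.85 FPKM in controls and 2.63 to 8.74 in knockouts, and the difference between populations was -1.58 ± 0.48 (limma adjusted p = 0.999). Nxph1, a secreted ligand of neurexins, was at 2.21 FPKM against 0.247, 0.113 and 0, and at 4.55 against 0 and 1.08, and it was lower in ALDH- knockouts too (-1.27). Epdr1, Catsper4, which encodes a sperm calcium channel subunit, AW146020, 0610009L18Rik, Gm16675 and B430010I23Rik had control values of 2.08 to 5.92 FPKM and differences of -2.01 to -1.21. Snora74a, again a small RNA, had no more than 6 inferred fragments and was on the opposite side in ALDH- cells (2.34).

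Of the 5 genes at least 2-fold higher in all ALDH+ knockouts, 0 were higher in ALDH- knockouts, where 49.3% of all genes were. Vps36 (chr8:23303332-23329069), a subunit of the ESCRT-II complex that sorts ubiquitinated membrane proteins to lysosomes, was at 2.66 FPKM in the RIP-Cre control and 12.6, 13.6 and 9.94 in its knockouts. In the Pdx-Cre libraries it was at 5.84 in the control and 17.3 and 17.2 in the knockouts. Its p was the smallest of all genes tested (1.66 ± 0.24, limma adjusted p = 0.461). In ALDH- cells its groups overlapped slightly and lay the other way, with 14.2 to 22.7 FPKM in controls and 9.72 to 14.8 in knockouts (-0.66). The difference between the ALDH+ and ALDH- contrasts was 2.30 ± 0.35, with a limma adjusted p of 0.0815 over 11253 genes, the smallest of that test. Vps36 passed this interaction with no filter on low values (adjusted p = 0.0228), without the Pdx-Cre ALDH+ control (0.0495) and without ALDH+ knockout 3 (0.0345). No gene passed it when ALDH+ knockout 1, 2 or 4 was left out, with a smallest limma adjusted p of 0.216, 0.233 and 0.244 in turn, nor with a pseudocount of 5 in place of 1 (0.156). The ALDH+ controls were the libraries with the lowest values, and ALDH+ knockouts were within the range of the ALDH- libraries.

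Serinc2 (chr4:129930741-129952830), of a family that incorporates serine into membrane lipids, was at 4.74 FPKM against 16.7, 12.5 and 23.4 in RIP-Cre libraries. With Pdx-Cre it was at 1.81 against 7.28 and 10.9 (1.76 ± 0.31, adjusted p = 0.536). Tuba8 (chr6:121160788-121176115), an alpha tubulin isotype, was at 0.689 FPKM against 4.45, 3.56 and 5.64, and at 1.27 against 3.70 and 5.10 (1.501 ± 0.34). All knockouts lay above both controls for both genes. In ALDH- cells Serinc2 gave -0.20 and Tuba8 gave -0.98, and the Tuba8 difference between populations was 2.54 ± 0.60 (limma adjusted p = 0.688).

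Trit1 (chr4:122693840-122732177), which adds an isopentenyl group to transfer RNAs, was at 2.79 FPKM against 6.72, 7.83 and 17.1, and at 4.32 against 10.7 and 10.3 (1.35 ± 0.36). In ALDH- cells it gave -0.02. Gm15698 (chr11:88825981-88828231), a predicted transcript, was listed at 0 in both controls and at 1.13 to 7.40 FPKM in knockouts, on at most 47.0 inferred fragments. All 5 genes had an unadjusted p under 0.05 for the difference between the ALDH+ and ALDH- contrasts, where 478 of the 11253 genes did (4.25%), and 0 of the 11253 passed adjustment.

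Of the 20 lower genes, 18 could be tested in all 15 libraries. In ALDH- cells 12 of the 18 were also lower, where 50.7% of all genes were, 6 of them at an unadjusted p under 0.05, and 1 (Snora74a) was higher at that level. The same threshold was passed by 649 genes (5.77%) in the ALDH- contrast, of which 2 (0.0178%) passed adjustment. Since the 25 genes were chosen on the ALDH+ contrast, the difference between populations is partly fixed by that choice.

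Below the 2-fold limit, some better expressed genes had close values in both drivers and are given as further examples chosen after their values were seen. Adora3, an adenosine receptor, was at 37.9 FPKM in the RIP-Cre control and 109, 99.1 and 89.8 in its knockouts, and at 29.3 in the Pdx-Cre control and 71.8 and 54.95 in its knockouts (1.26 ± 0.19, limma adjusted p = 0.461). Its ALDH- groups overlapped (0.40). Nnt, the mitochondrial transhydrogenase that makes NADPH and that is mutated in some C57BL/6 substrains, was at 8.34 FPKM against 17.3, 25.9 and 21.8, and at 6.23 against 14.1 and 11.5 (1.13 ± 0.24). In ALDH- cells Nnt spanned 7.97 to 16.9 FPKM in controls and 5.15 to 25.5 in knockouts. Iqgap2, a scaffold of the cytoskeleton, was at 14.9 FPKM against 23.8, 25.9 and 25.6, and at 10.4 against 26.5 and 22.6 (0.96 ± 0.20). It was as much higher in ALDH- knockouts (1.05), at 24.4 to 29.7 FPKM against 8.16 to 14.9 in controls.

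On the lower side, Anpep, aminopeptidase N, was at 64.3 FPKM against 29.0, 26.9 and 31.3 with RIP-Cre, and at 25.6 against 12.1 and 12.7 with Pdx-Cre (-1.02 ± 0.19, limma adjusted p = 0.536). Lpl, lipoprotein lipase, was at 73.6 FPKM against 41.0, 53.8 and 39.7, and at 27.1 against 14.9 and 17.0 (-0.69 ± 0.19). For both genes the Pdx-Cre control lay below or within the RIP-Cre knockouts, so the groups overlapped unless read within a driver. In ALDH- cells they gave -0.79 and -0.72.

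**Figure D2:**
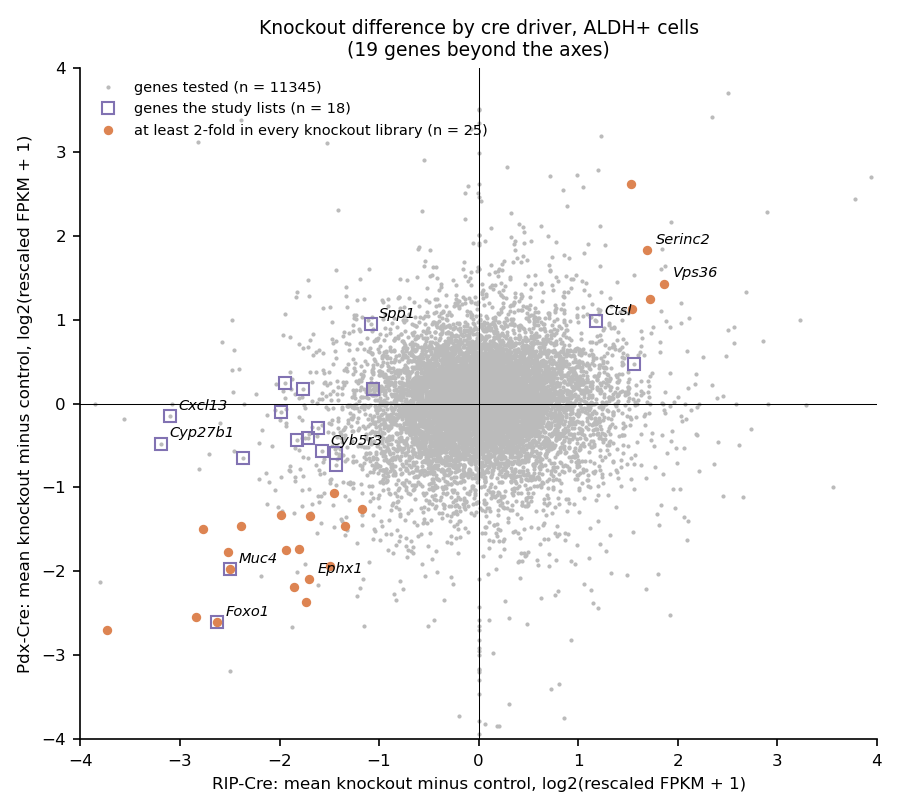
Mean difference between knockout and control, log2(rescaled FPKM + 1), in RIP-Cre (horizontal) and Pdx-Cre (vertical) ALDH+ libraries, each point a gene, with the 25 genes at least 2-fold apart in every knockout in orange and the study's 18 genes as squares. The 19 genes beyond 4 on either axis, 2 of them at least 2-fold apart, are not drawn, and the median absolute difference over all genes was 0.34 with RIP-Cre and 0.29 with Pdx-Cre.

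The study names 24 genes for this contrast in a partial list, and its complete list was not used here. Its DESeq test on counts put Foxo1, Cyb5r3, Cyp27b1, Elovl7 and Hip1r under an adjusted p of 0.05, and the rest of the 24 above it. The fit here used FPKM, limma and the libraries of both drivers, so its adjusted p-values are not comparable with the study's. The 24 were chosen on RIP-Cre libraries that are among these 7, so that their RIP-Cre values are no independent evidence and are given as a description. Of the 24, 18 passed the filter on low values, and the rest, among them Bach2, Dnahc17, Gpc6, Prnd and Nog, did not. The mean RIP-Cre difference was -1 or lower in 16 of the 18 and 1 or higher in 2. In the Pdx-Cre libraries 2 of the 18 were at -1 or lower, Foxo1 and Muc4, and 0 were at 1 or higher. The sign was the same in the means of both drivers for 14, the sign rule was met by 11 on the lower and 2 on the higher side, and all 18 were smaller in size with Pdx-Cre. The median absolute difference was 1.74 with RIP-Cre and 0.48 with Pdx-Cre. Genes chosen for a large RIP-Cre difference are set to have a smaller Pdx-Cre difference, so these counts are a description of the choice. Over all 11345 genes, 467 had an unadjusted p under 0.05 for the difference between drivers (4.12%).

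Cyb5r3, cytochrome b5 reductase, which passes electrons from NADH to fatty acid desaturation and elongation, held within both drivers at unequal size. It was at 291 FPKM in the RIP-Cre control and 91.4, 110.3 and 80.6 in its knockouts, and at 339.9 in the Pdx-Cre control and 184 and 283 in its knockouts. Each knockout was below its own control, and after rescaling the groups overlapped, since knockout 5 reached the level of the RIP-Cre control (-1.10 ± 0.27, limma adjusted p = 0.650). The RIP-Cre difference was -1.57 and the Pdx-Cre difference -0.56. Knockouts of ALDH- cells spanned 70.9 to 356 FPKM against 319 to 346 in controls (-1.30).

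Etl4, Elovl7, Jam2 and Krba1 kept the same sign within both drivers. Etl4 was at 21.4 FPKM against 7.48, 7.57 and 5.96, and at 7.64 against 3.94 and 4.35. Elovl7, an elongase of very long fatty acids, was at 7.71 against 1.47, 0.526 and 0.167, and at 2.76 against 1.42 and 1.36. Jam2, a junctional adhesion molecule, was at 10.05 against 2.13, 2.29 and 1.69, and at 2.37 against 1.92 and 1.11. Their Pdx-Cre differences (-0.74, -0.65 and -0.43) were smaller than those with RIP-Cre (-1.44, -2.37 and -1.82), and Krba1 gave -0.59 and -1.43. Hip1r, which links clathrin coats to actin and is known from insulin granule maturation, stood apart in the RIP-Cre control. It was at 34.4 FPKM there and at 9.78 to 13.1 in the other 6 libraries, the Pdx-Cre control included.

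A high value in the RIP-Cre control alone was also seen in Cyp27b1, the enzyme that activates vitamin D, at 9.85 FPKM there and 0 to 0.422 in the other 6 libraries. Cxcl13, a chemokine of lymphoid tissue, was at 7.85 FPKM there and 0 to 0.109 elsewhere. Bach2, a transcriptional repressor, was at 2.69 and 0.0376 to 0.3001, and Nog, the BMP inhibitor noggin, was at 3.81 and 0. For Cyp27b1 and Cxcl13 the difference between drivers was 2.71 and 2.95 (limma adjusted p = 0.997 for both). Spp1, Ptprt, Ncam1 and 2010015L04Rik had opposite signs in the 2 drivers. Spp1, osteopontin, was at 339 FPKM in the RIP-Cre control against 168, 143 and 151, and at 186 in the Pdx-Cre control against 184 and 697.

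Ctsl and Cox6b1 were the listed genes that were higher in knockouts of both drivers. Cox6b1, a subunit of cytochrome c oxidase, was at 79.6 FPKM against 224, 235 and 223, and at 167 against 215 and 248 (1.05 ± 0.24, adjusted p = 0.650). Its RIP-Cre difference was 1.56 and its Pdx-Cre difference 0.48. Ctsl, a lysosomal protease, was at 133 FPKM against 257, 299.6 and 322, and at 279.7 against 320.3 and 941. Knockout 5 gave most of its Pdx-Cre difference (0.98).

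**Figure D3:**
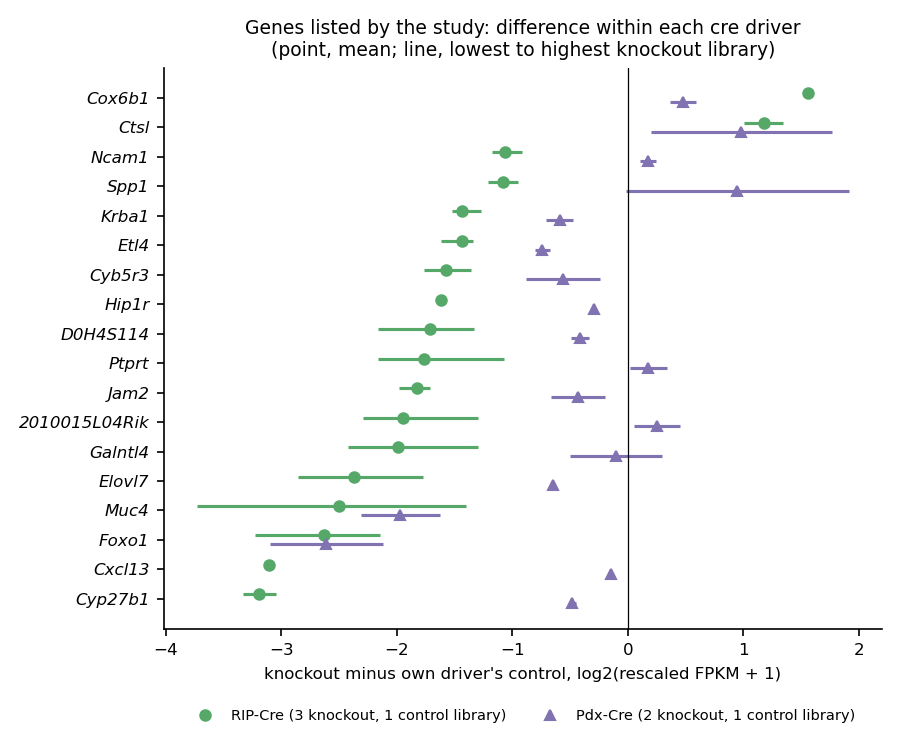
Difference between knockout and control (horizontal, log2(rescaled FPKM + 1)) for the 18 listed genes that were tested, in RIP-Cre (circles) and Pdx-Cre (triangles) ALDH+ libraries, with points for means and lines from the lowest to the highest knockout. All 18 Pdx-Cre points lie nearer to 0 than the RIP-Cre points, and Foxo1 and Muc4 are the genes at -1 or lower in both.

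FoxO proteins bind the element GTAAACA, and promoters of genes lower in the knockouts were searched for it. The RefSeq promoter table for GRCm38.p6, which spans 250 bases before to 50 after each start, was searched for GTAAACA on either strand. The element was in 3.65% of all 32851 windows and in 251 of the 8088 tested genes that could be matched by symbol (3.10%). Among genes that met the sign rule with an unadjusted p under 0.05, which were 277 lower (2.44%) and 406 higher (3.58%) of those tested, it was found in 6 of 191 matched lower genes (3.14%) and in 3 of 278 matched higher genes (1.08%). It was in 0 of the 12 lower and 0 of the 4 higher genes of the 2-fold set that matched. Of the 6 lower genes, 3 windows are shown as examples from genes described here, on the gene strand with the element in capitals, and the choice of Fhit and Sfxn3 was made after their values were seen:
Etl4: agtgtgcagtgTGTTTACcttgccttgtg
Fhit: catagcatcatTGTTTACttaggacattg
Sfxn3: gcagcaatcaaGTAAACAagcagtaatcc

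The windows lie at chr2:20289670-20289698 (plus strand, element 232 bases before the start), chr14:10453629-10453657 (minus strand, 188 bases) and chr19:45047436-45047464 (plus strand, 129 bases) in GRCm38.p6, a build other than that of the FPKM tables. In Etl4 and Fhit the element runs on the other strand and is read as TGTTTAC. Fhit, which hydrolyses diadenosine triphosphate, was at 5.69 FPKM against 1.25, 2.52 and 0.282, and at 5.48 against 1.36 and 1.46 (-1.51 ± 0.43). Sfxn3, a mitochondrial serine carrier, was at 11.7 FPKM against 8.77, 9.07 and 8.66, and at 14.5 against 3.23 and 4.66 (-0.95 ± 0.33). A match of letters does not show that a factor was bound there.

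Genes of protein synthesis and oxidative phosphorylation had a larger share on the higher side than all genes did, unevenly across libraries. Of 80 tested genes for cytosolic ribosomal proteins, 37 met the sign rule on the higher side and 0 on the lower side (46.2% against 10.4% of all genes), with a median difference of 0.47 where that of all genes was 0.0138. No member passed the test, and 16 had an unadjusted p under 0.05. The shares were 13 higher and 1 lower of 37 for complex I (median 0.43), 6 of 14 for complexes II and III (0.45), 7 of 13 for complex IV (0.55) and 8 of 15 for ATP synthase (0.31), with 0 lower in the last 3. The medians were 0.64 with RIP-Cre and 0.22 with Pdx-Cre for ribosomal genes, and 0.75 and 0.28 for complex IV.

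Rpl39, of the large ribosomal subunit, was at 217 FPKM in the RIP-Cre control against 491, 545 and 273 in its knockouts, and at 443 in the Pdx-Cre control against 585 and 652. Uqcrh, a hinge subunit of complex III, was at 111 against 198, 248 and 144, and at 178 against 287 and 258 (0.74 ± 0.22). In both genes the Pdx-Cre control was above the RIP-Cre knockout 3, and the groups overlapped. In some other members the groups did not overlap, Cox8a of complex IV and Ndufa3 of complex I among them. Cox8a was at 299.6 and 389 FPKM in the controls and 493 to 581 in the knockouts (0.64 ± 0.17), and it was higher in ALDH- knockouts too (0.53). Ndufa3 of complex I was at 53.5 against 154, 163 and 132 and at 131 against 133 and 192, and Atp5e of ATP synthase was at 142 against 536, 439 and 188 and at 279 against 497 and 380.

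Knockout 3 stood apart from the other RIP-Cre knockouts. The median ribosomal difference from the library's own control was 0.87 and 0.90 in knockouts 1 and 2, 0.07 in knockout 3, 0.22 in knockout 4 and 0.19 in knockout 5. The RIP-Cre control (9341 summed FPKM) and knockout 3 (9711) were the lowest, and the other 5 libraries were at 16023 to 18291. The summed nuclear noncoding RNAs ran the other way, at 5339 and 5184 in the same 2 libraries, 4885 in the Pdx-Cre control and 2475 to 4194 in the other knockouts. Ribosomal and respiratory mRNAs are short, and with a trend against transcript length removed the ribosomal median was 0.15 in place of 0.47 and the others 0.16 to 0.26. The part of the nuclear RNA levels in the ribosomal values was not tested. In ALDH- cells the medians were -0.11 for ribosomal genes, -0.12 for complex I, 0.02 for complexes II and III, 0.07 for complex IV and 0.02 for ATP synthase.

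**Figure D4:**
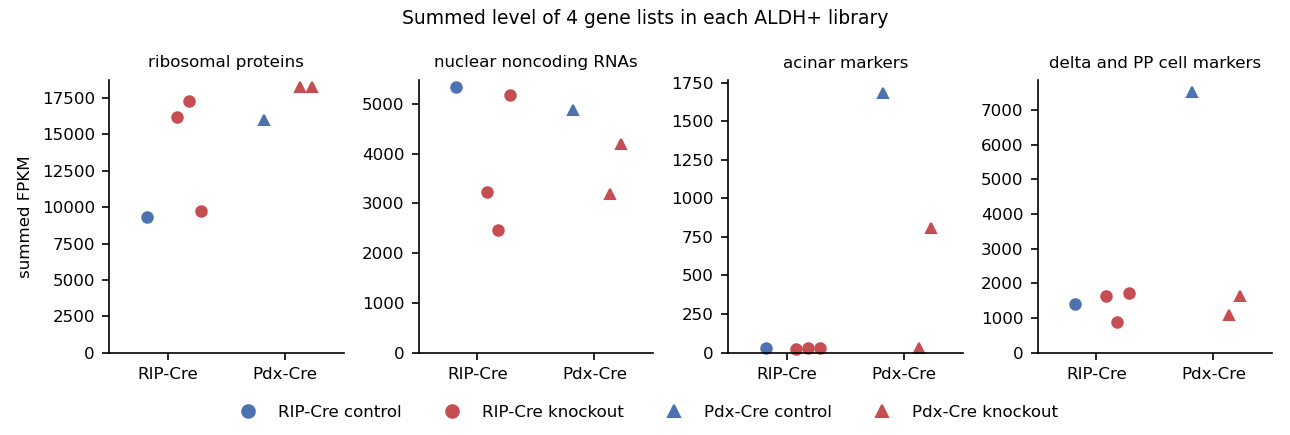
Summed FPKM (vertical) of 4 gene lists in each of the 7 ALDH+ libraries, RIP-Cre as circles and Pdx-Cre as triangles, with controls in blue and knockouts in red. Ribosomal protein genes sum to 9341 in the RIP-Cre control and 9711 in knockout 3 and to 16023 to 18291 in the other 5, while nuclear noncoding RNAs are highest in those 2 libraries.

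Nuclear and splicing transcripts differed between knockouts. The median of the nuclear noncoding RNAs was -0.48, -0.82, -0.04 and -0.38 in knockouts 1 to 4 and 0.13 in knockout 5, and that of the splicing list was -0.66, -0.69, -0.22 and -0.18 in knockouts 1 to 4 and 0.11 in knockout 5. Malat1, an abundant nuclear noncoding RNA, was at 4371 FPKM against 2484, 1801 and 4027, and at 4047 against 2379 and 3347 (-0.60 ± 0.34, adjusted p = 0.802). It was the 1 of 11 nuclear noncoding RNAs to meet the sign rule (9.09% against 8.96% of all genes), and without knockout 5 there were 5, of which 4 were lower and 1 higher. Of 20 splicing and nuclear speckle mRNAs 4 met it on the lower side (20%) and 0 on the higher, with a median of -0.28 that was -0.11 without the RIP-Cre control and -0.50 without the Pdx-Cre control, and 9 met it without knockout 5. Among the 4 was Luc7l at 34.5 against 20.1, 15.2 and 21.5, and at 25.5 against 20.1 and 14.8. Srrm2, Pnn and Ogt gave -0.34, -0.48 and -0.29. In ALDH- cells the medians were 0.47 and 0.25, on the other side.

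Imprinted genes were also on the lower side, with 5 of 15 tested meeting the sign rule and 0 on the higher side (33.3% against 8.96% of all genes). Their median was -0.38, and it was -0.21 without the RIP-Cre control, -0.25 without the Pdx-Cre control and -0.23 with the length trend removed. Grb10, an adaptor that restrains insulin receptor signalling, was at 24.7 FPKM against 13.3, 15.9 and 13.9, and at 20.9 against 10.6 and 13.9 (-0.71 ± 0.21, adjusted p = 0.650), with no overlap and equal size in both drivers. Peg3, a zinc finger protein, was at 439 against 221, 206 and 307, and at 196 against 179 and 168. Rtl1, of retrotransposon origin, was at 20.5 against 5.08, 1.93 and 11.4, and at 10.97 against 2.32 and 9.17. The Peg3 difference was -0.81 with RIP-Cre and -0.16 with Pdx-Cre.

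Few beta cell identity genes kept to the same side within both drivers, at shares near those of all genes. Of 18 beta cell transcription factors, 1 met the sign rule on the higher and 2 on the lower side (median -0.16). Isl1, a LIM homeobox factor of endocrine cells, was at 60.4 FPKM against 46.1, 41.3 and 46.2, and at 60.3 against 33.9 and 39.2 (-0.53 ± 0.18, adjusted p = 0.677), and its groups did not overlap. Mnx1, a motor neuron and pancreas homeobox gene, was on the higher side at 0.591 and 1.00 FPKM in controls and 1.40 to 2.10 in knockouts. Pdx1 was at 96.1 FPKM in the RIP-Cre control against 55.04 to 65.5 and at 30.4 in the Pdx-Cre control against 27.2 and 31.4, and Mafa at 4.48 against 2.57 to 4.59 and at 2.51 against 0.434 and 1.11, both chosen after their values were seen and neither meeting the rule.

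Of 27 genes of beta cell function, 2 met the sign rule, both higher (7.41% against 10.4% of all genes, median 0.04). Ffar1, the receptor by which fatty acids enhance insulin secretion, was at 12.9 FPKM against 24.0, 18.1 and 16.7, and at 9.89 against 29.3 and 14.9 (0.80 ± 0.29, adjusted p = 0.685). Iapp was at 33196 against 97371, 97293 and 42520, and at 69597 against 87332 and 90302. Knockout 3 was again near the RIP-Cre control. The difference of Ins2 was 0.06 ± 0.83, which is less than its error.

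Among progenitor markers 8 of 19 were tested. Hes1, a Notch target that restrains endocrine differentiation, was at 0.933 FPKM against 7.28, 4.65 and 5.38, and at 2.34 against 2.72 and 7.16 (1.31 ± 0.42, adjusted p = 0.660). Cd81, a tetraspanin of immature beta cells, was at 130.3 against 155, 248 and 204, and at 112 against 263 and 163 (0.77 ± 0.24), and gave 0.54 in ALDH- cells. Gata6, a factor of early pancreas, was on the lower side at 4.37 and 2.26 in controls and 0.443 to 1.86 in knockouts. Of the disallowed genes, which mature beta cells keep silent, 4 of 20 were tested, with Tgm2 at 0.124 and 0.252 FPKM in controls and 0.452 to 10.04 in knockouts and Lmo4 at 1.72 and 2.96 against 0.0798 to 2.14. The value of 10.04 is from knockout 5, the other knockouts being at 1.07 or below.

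Of the genes known as FoxO targets, 5 of 32 tested met the sign rule on the higher side (15.6% against 10.4% of all genes). On the lower side 2 did (6.25% against 8.96%), and the median was -0.06. Gabarapl1, an autophagy gene, was at 48.9 FPKM against 63.6, 74.6 and 61.7, and at 43.5 against 75.9 and 61.2 (0.56 ± 0.18, adjusted p = 0.660). In ALDH- cells the difference was on the opposite side (-0.40), and the difference between populations was 0.96 ± 0.23 (limma adjusted p = 0.688). Sod2, the mitochondrial superoxide dismutase, was at 18.2 FPKM against 30.04, 28.2 and 58.1, and at 46.7 against 46.6 and 135. Prdx3, a mitochondrial peroxiredoxin, was at 14.9 against 21.6, 29.6 and 31.8 and at 27.8 against 29.2 and 28.8, and Cited2, a transcriptional co-regulator, was at 19.2 against 11.9 to 14.9 and at 12.3 against 7.66 and 8.43.

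Of 30 antioxidant genes 6 met the sign rule on the higher side (20% against 10.4% of all genes) and 2 on the lower (6.67% against 8.96%), with a median of 0.18 that was 0.08 without the RIP-Cre control, and without knockout 4 the 8 in either direction were 13. Among the 6 was Txn1, thioredoxin, at 60.2 FPKM against 90.7, 119 and 89.9, and at 125 against 174 and 216 (0.70 ± 0.19, adjusted p = 0.650). Of 32 unfolded protein response genes 5 (15.6%) and 3 (9.38%) did so (median -0.01), with Sdf2l1, a chaperone partner of the endoplasmic reticulum, at 77.8 against 122, 124 and 101, and at 122 against 192 and 140. Herpud1 gave 0.47, Hyou1 0.19 and Dnajb11 0.27. Sod1, Prdx1 and Gclm gave 0.23, 0.55 and -0.23.

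Fatty acid synthesis and elongation genes were divided, with 9 of 29 meeting the sign rule on the higher and 4 on the lower side. These shares were 31.0% and 13.8%, against 10.4% and 8.96% of all genes, and the median was 0.21. Cyb5r3 was among the lower ones and Cyb5, the cytochrome b5 that it reduces, was higher at 49.6 FPKM against 65.6, 78.4 and 72.7, and at 42.8 against 55.9 and 92.7 (0.66 ± 0.22, adjusted p = 0.677), with no overlap. Elovl5 gave 0.33 and Cyb5b 0.21. Of 25 lysosome genes 4 were higher (16.0% against 10.4% of all genes) and 0 lower (median 0.08). Lamp1, Cd63 and Laptm4a were at 0.32, 0.43 and 0.44.

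Of 33 insulin and mTOR signalling genes, 3 met the sign rule on the higher side (9.09% against 10.4% of all genes) and 7 on the lower (21.2% against 8.96%), with a median of -0.11. Rps6kb2, an S6 kinase, was at 28.2 FPKM against 14.3, 14.1 and 24.8, and at 23.7 against 15.3 and 14.5 (-0.63 ± 0.26). Akt2 was on the higher side, at 17.3 against 19.9 to 22.3 and 12.2 against 16.5 and 24.8. Pik3r1 gave -0.20. Of 13 cell cycle genes 2 met the sign rule on the higher side (15.4% against 10.4% of all genes). E2f1, which drives entry into S phase, was at 0.140 and 0.277 FPKM in controls and 0.630 to 3.40 in knockouts. Its control values stood for 3 and 6 inferred fragments. Cdkn2c, an inhibitor of cyclin D kinases, was at 2.11 against 5.74 to 6.505 and at 0.463 against 0.527 and 1.93. Of 23 immediate early genes 3 met the sign rule on the higher side (13% against 10.4% of all genes) and 0 on the lower. The list median was -0.05, with differences from -1.25 to 0.67. The 3 were Btg2, Ier2 and Jund, at 0.35, 0.62 and 0.67.

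**Figure D5:**
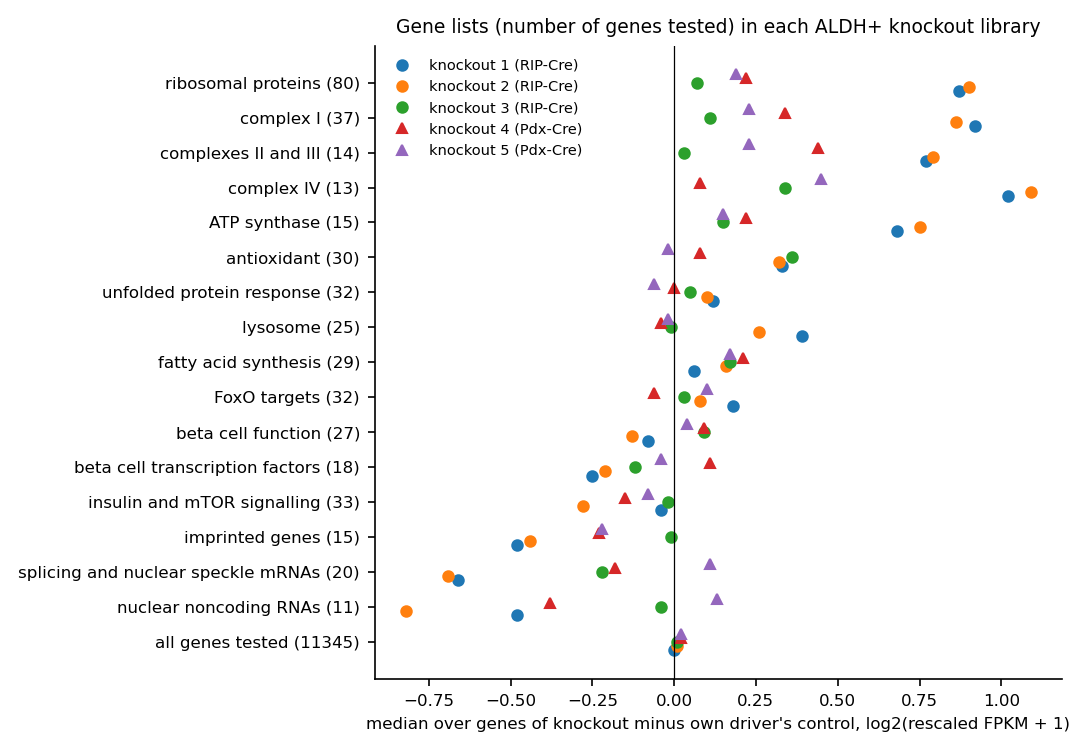
Median over the tested members of each gene list (vertical) of the difference between a knockout and its own driver's control (horizontal, log2(rescaled FPKM + 1)), each point an ALDH+ knockout. Ribosomal proteins lie at 0.87 and 0.90 in knockouts 1 and 2 and at 0.07 to 0.22 in knockouts 3 to 5.

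A difference between the drivers themselves was past the threshold in 1 of 11345 genes (0.00881%). Snora2b, a small nucleolar RNA, was at 103 FPKM in the RIP-Cre control and 0 in its 3 knockouts, and at 0 in the Pdx-Cre control and 94.5 and 92.7 in its knockouts (adjusted p = 0.000208 with limma, 13.23 on the log2 scale, Pdx-Cre minus RIP-Cre). Each of these values stood for 1 inferred fragment. Of 9 duct markers tested, 1 met the sign rule on the higher side (11.1% against 10.4% of all genes) and 0 on the lower. The duct differences ran from -0.91 to 2.05 with a median of 0.03. That 1 was Krt19, at 0 against 0.752, 10.5 and 12.04 and at 6.07 against 14.6 and 18.8. Of 5 immune markers tested, 1 met the rule on each side. Cd74 was higher, at 0.416 and 3.18 in controls and 0.777 to 10.8 in knockouts. Cd68 was lower, at 37.7 against 18.99 to 22.7 and at 70.8 against 34.4 and 59.6. Bhlha15, an acinar factor also expressed in these islet cells, gave -0.30, and the parts of these markers in the differences were not tested.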

How the data were processed

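RNA from sorted cells was enriched for poly-A and sequenced by the authors, who deposited a table of FPKM per gene with its error limits for each library. The submitters' processing notes name TopHat2 2.0.4, bcl2fastq 1.8.4 and the genome build mm9, and the layout of the tables is that of Cufflinks, whose version is not given in the sources used here. The study's methods name a test on counts, which the tables do not hold, so log2 FPKM was tested with limma. Lines were dropped when their symbol recurred (712 lines of 248 symbols) or when an ALDH+ library gave no valid estimate (35 lines), leaving 22952 genes. FPKM were rescaled by trimmed means (30% of ratios and 5% of levels trimmed, factors 0.981 to 1.03) and analysed as log2(rescaled FPKM + 1), so that fold changes of low genes are understated. The model was limma 3.58.1 (R 4.3.3) on the genes averaging 1 or more after rescaling (cre driver as covariate, trend in the prior variance, two-sided, Benjamini-Hochberg, threshold 0.05, 4 residual degrees of freedom), and further models held the interaction of genotype with driver and all 15 libraries. The printed FPKM are the deposited values. Fragments per line were inferred from the error limits, assumed to lie 2 Poisson standard errors away, and 65.8% of such estimates under 500 lay within 0.02 of a whole number. They cover counting error only.

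Libraries are grouped by their labels. Nothing in the labels says that libraries of a group came from separate mice, so p-values measure the spread between libraries. Replicate numbers did not pair control and knockout libraries, since number 2 is Pdx-Cre in controls and RIP-Cre in knockouts. Named genes were the Foxo genes, up to 10 per direction past the threshold or otherwise with the smallest p among those meeting the 2-fold rule, the study's listed genes, genes past an interaction, up to 4 members per list with the highest mean FPKM among those meeting the sign rule, and Aldh1a3. The members, lists and rules were chosen with earlier results of these data known. The scripts were tested on simulated data. Alternatives were other added constants, filters, scalings and priors, no driver term, all 15 libraries, a transcript length trend removed, a replicate block, each driver alone and each library left out. Coordinates are mm9, except those of promoter windows, which come from RefSeq on GRCm38.p6. Gene symbols are those of the tables, and reads shared with overlapping genes or near-identical copies, as in ribosomal pseudogenes, are uncertain. Values of some listed genes are not reported here.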

Additional observations from a re-analysis of the deposited data

Results flagged for a closer look

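In groups of 5 libraries, a value was flagged when its gap to the nearest library exceeded 0.71 of the range of the group (Dixon's 95% value for 5). Of 135 values and sums examined over the ALDH+ knockouts, 22 were flagged, 11 of them in knockout 5, 9 in knockout 3 and 2 in knockout 1. Chance flags about 1 in 20 of normal, independent values. FPKM were used without logarithms, and some flagged sums contain flagged genes, as the listed genes contain Ctsl and Spp1. The count of flags therefore cannot be read against that rate. Groups of fewer than 4 were not examined.

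Knockout 5 (Pdx-Cre) stood high in Ctsl (941 FPKM, next 322), Spp1 (697), Sod2 (135), Tgm2 (10.04), Cox8a (581), Mir686 (88.2) and Snora30 (136). It also stood high in the summed FPKM of acinar markers (809, next 32.6), duct markers (1092), disallowed genes (150.8) and the study's listed genes (2246). The Pdx-Cre control, with 1684 summed FPKM of acinar markers, had Tgm2 at 0.124, Spp1 at 186, Ctsl at 279.7 and Cox8a at 389 FPKM.

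Knockout 3 (RIP-Cre) stood low in Iapp (42520 FPKM, next 87332), Rpl41 (1710 FPKM) and the summed FPKM of complex I (1923), ATP synthase (2552) and ribosomal proteins (9711). It stood high in Srrm2 (219), Jund (15.7), Rps6kb2 (24.8) and the sum of insulin and mTOR signalling genes (981). Knockout 1 stood low in Prdx3 (21.6 FPKM) and high in the sum of alpha cell markers (1635, next 884).

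The difference of Snora2b between the drivers (13.23, log2, Pdx-Cre minus RIP-Cre) passed the interaction test (limma adjusted p = 0.000208) on 1 inferred fragment in each library where it was found.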

How the results depend on the processing

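The count of genes past the threshold, 0 in the fit described (746 at an unadjusted p under 0.05), was 4 with RIP-Cre libraries only (Mir686, Snora30, Snora2b and Snora34), 4 with the replicate block (Mir686, Snora30, Snora69 and Snora43) and 0 to 2 with a library left out (Snora2b without either control, Snora69 and Snora43 without knockout 3, Mir686 and Snora30 without knockout 5). All are small-RNA lines. With the sign rule it was 2 with the block, 4 with RIP-Cre only and 0 to 2 with a library left out. The replicate numbers do not pair libraries. The 25 genes at least 2-fold apart in all knockouts were 79 with 0.1 added in place of 1, 6 with 5 added, 10 at a mean of at least 5, and 36 to 65 with a knockout left out (42 without knockout 1, 47 without 3, 49 without 4, 65 without 5, where fewer libraries had to meet the rule and all 25 remained). Genes past the driver interaction were 1, and 337 with no filter or 1 to 3 with a library left out (3 without knockout 3, 2 without knockout 4). Genes past the ALDH interaction were 0, and 16 with no filter or 0 to 3 with a library left out (1 without the RIP-Cre control, 3 without the Pdx-Cre control, 3 without knockout 3, 1 without knockout 5). The causes of these shifts were not tested.

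Of 104 named genes 94 kept their direction in all alternatives run. Many were named because they met the sign rule or the 2-fold rule, which by itself favours a kept direction. The count is therefore a description and no test. The log2 difference of Foxo3 was -0.18 under the block, -0.04 with Pdx-Cre only and without the RIP-Cre control, -0.01 without knockout 3, -0.16 without knockout 5 and 0.40 without knockout 4. Foxo6 was at -0.05 with RIP-Cre only and without the Pdx-Cre control, and 0.44 without the RIP-Cre control. With Pdx-Cre only, and without the RIP-Cre control, Ptprt was at 0.18, 2010015L04Rik at 0.25, Ncam1 at 0.17, Snora2b at 6.58 and Spp1 at 0.95, and Spp1 was at 0.12 without knockout 4. Without the Pdx-Cre control they were at -1.76, -1.95, -1.06, -6.65 and -1.08. Under the block Hyou1 was at -0.02, Sod1 at -0.04 and Ier2 at -0.02, and Sod1 was at -0.09 with the length trend removed. Alternatives for list medians were chosen after seeing the data. The ribosomal median was 0.47, 0.22 with Pdx-Cre only, 0.15 with the length trend removed, and 0.56 without knockout 3, when 55 members met the sign rule in place of 37. With 1 control per driver the spread among controls within a driver is unknown, and low genes rest on few fragments.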
